A study of Mus musculus with 2 samples.

Results

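Pattern recognition receptors let blood cells detect microbes and damaged tissue. The set described here held 10 genes, chosen by name: the Toll-like receptor genes *Tlr2*, *Tlr4*, *Tlr7* and *Tlr13*, the lipopolysaccharide co-receptor gene *Cd14*, the adaptor gene *Myd88*, the C-type lectin receptor genes *Clec4d*, *Clec4e* and *Clec7a*, and the inflammasome sensor gene *Nlrp3*. Of these, 9 matched a row among the 32285 genes listed for both libraries, and *Clec7a* was not analysed here. Toll-like receptors bind microbial products at the cell surface or in endosomes, and most of them signal through *Myd88* to NF-kB. The lectins *Clec4d* and *Clec4e* bind microbial glycolipids and signal through the ITAM adaptor *Fcer1g*, and *Nlrp3* assembles the complex that activates caspase-1 for the release of IL-1beta. In bone marrow these genes are best known from neutrophils, monocytes and macrophages.

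The data were droplet 3′ single-cell RNA counts of mouse bone marrow, with 1 library from control mice (Ctrl) and 1 from Map4k4-cko mice (cKO). By the methods, the cKO mice were Mx1-Cre *Map4k4* f/f and the Ctrl mice were littermates written as Mx1-Cre *Map4k4* -/-, on a C57BL/6 background and 13 to 14 weeks old. Mx1-Cre is switched on by interferon in many cell types, and the floxed allele was deleted by poly I:C, a synthetic double-stranded RNA that itself acts on innate sensors, given weeks before the cells were taken. Whether Ctrl mice also received poly I:C, and how many mice each library held, is not given in the sources used here. In each library c-Kit+ progenitors were mixed with red-cell-lysed marrow at 2 parts to 3. With 1 library per group, differences between the groups have no replicate check, mouse and library cannot be told apart from genotype, and no p-value is given.

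The Ctrl library had 71527701 UMIs (unique molecular identifiers, 1 for each RNA molecule captured) over 10220 barcodes, and the cKO library 64393950 over 6872. After filters 9965 and 6718 cells were kept, with medians of 4111 and 6243.5 UMIs. Yet 11.7% of the Ctrl and 20.4% of the cKO cells had under 1000 UMIs. Cells were placed in gates by lists of marker genes that held no receptor of the set, which took in 75.7% of the Ctrl and 74.5% of the cKO cells. Cells near the cut between gates were 9.09% and 14.3%, and remained without a gate. Of the barcodes, 3010 occurred in both libraries, and among the 2077 of them gated in both, 14.4% fell in the same gate, against 13.2% from the product of the gate shares. *Map4k4* stood at 72.6 CPM in Ctrl (CPM being counts scaled to the usual common total) and 64.3 CPM in cKO over all kept cells, so that in these 3′ counts the targeted gene was 0.17 lower on the log2 scale, from -0.23 to -0.12 by counting error. The median log2 ratio of all genes was also below 0 within the gates compared below, from -0.48 to -0.11. A 3′ count outside the deleted exons can remain after deletion, and the cKO label was taken from the sample labels only. The paper reports loss of the *Map4k4* transcript by RT-PCR in stem and progenitor cells after poly I:C.

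Along the neutrophil path, the gates held 390 Ctrl and 105 cKO stem and multipotent progenitor cells (HSC/MPP), 1045 and 1251 promyelocyte-like cells (ProNeu), 929 and 628 cycling precursors (PreNeu), 1327 and 1061 immature neutrophils (imNeu), and 1242 and 1291 mature neutrophils (mNeu). The Monocyte gate held 704 and 336 cells, the Macrophage gate 112 and 36, and the plasmacytoid dendritic cell (pDC) gate 86 and 11. Among the 10 genes most over-represented in the mNeu gate were its markers *Stfa2l1* and *Asprv1*, and those in the Monocyte gate included its markers *Fn1* and *Ms4a4c*. The PreNeu gate was defined with the imNeu markers, and *Chil3*, *Camp* and *Ngp* of these were among its 10 leading genes. None of the other named gates had markers of another gate among its 10 leading genes. The gates were drawn on these markers, so this is no independent check. *Clec4d* itself was among the leading genes of the mNeu gate. Levels are CPM over the summed UMIs of a gate, not divided by gene length, because 3′ counting takes about 1 read end per molecule.

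Most of the set was highest in, or shared the highest level with, the mature neutrophils. In each library alone, *Tlr2*, *Tlr4*, *Tlr13*, *Myd88*, *Clec4d*, *Clec4e* and *Nlrp3* were higher in the mNeu gate than in the Monocyte gate, which is 7 of 9 measured members. The same held for 22.9% of all genes with at least 50 UMIs in each library. These 7 members were also at least 2-fold higher in the mNeu than in the imNeu gate in both libraries, as were 10.3% of all genes. *Tlr7* was lower in the mNeu than in the Monocyte gate in both libraries, and *Cd14* did not differ beyond counting error in Ctrl and was higher in the mNeu gate in cKO.

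**Figure D1:**
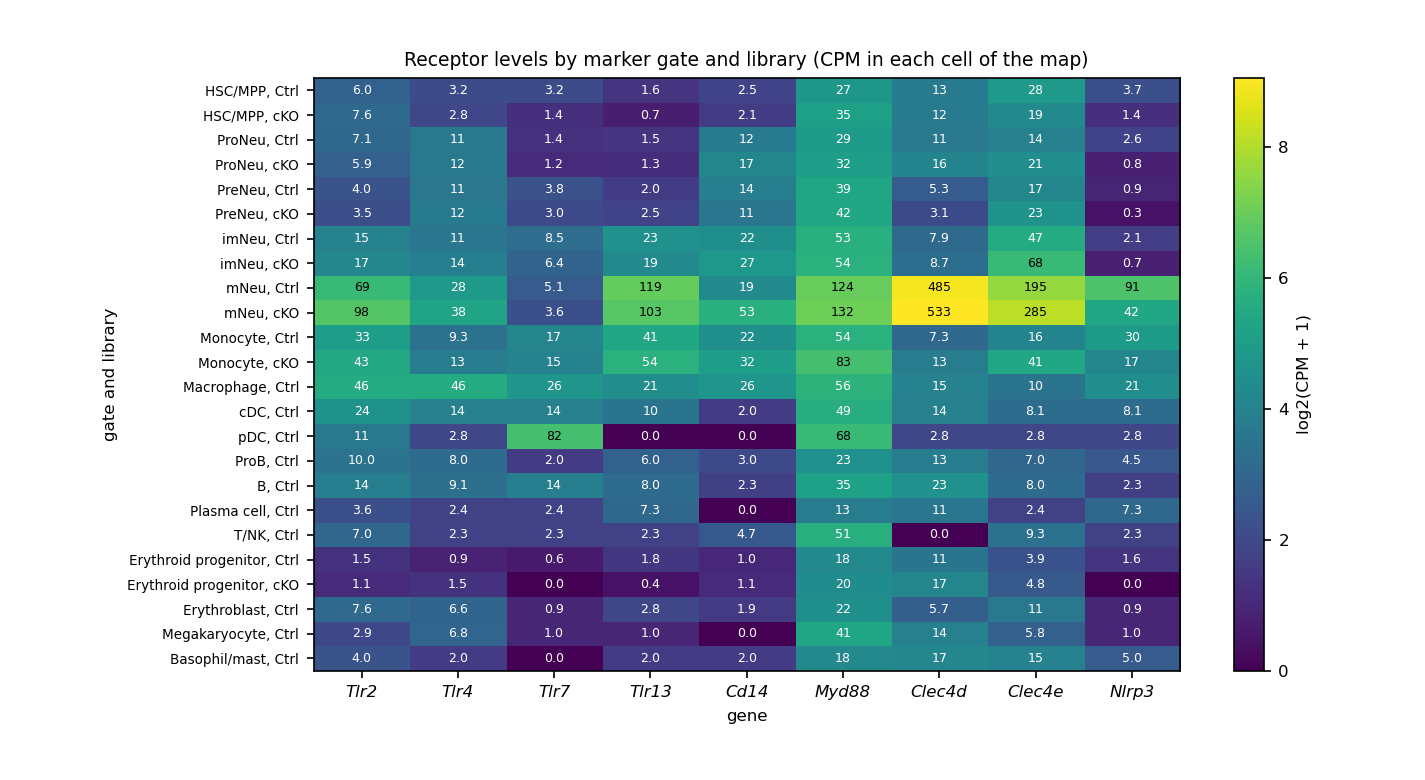
Levels of the 9 measured receptors by gate and library. Rows are gates with at least 50 cells in that library, columns are genes, colour is log2(CPM + 1) and the printed number is CPM. The mNeu rows hold the highest values of Clec4d, 485 and 533 CPM, and the pDC row of Ctrl holds the highest value of Tlr7, 82.1 CPM.

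The lectin genes *Clec4d* and *Clec4e* had the highest mNeu levels of the set and the largest ratios of mNeu over Monocyte level, 66.4-fold and 12.3-fold in Ctrl and 41.1-fold and 6.94-fold in cKO. For *Clec4d*, whose monocyte level was near background, these are not exact folds. The genes lie side by side on chromosome 6 of GRCm38 in GENCODE vM21, *Clec4d* at 123262111 to 123275265 on the plus strand and *Clec4e* at 123281789 to 123289870 on the minus strand, so that their 3′ ends face each other across 6523 bases. Their RefSeq promoter windows, each 250 bases before to 50 after the start, are shown because the pair shares its peak in the mNeu gate. *Clec4d* is chr6:123261857-123262156 on the plus strand and *Clec4e* is chr6:123289822-123290121 on the minus strand, both in GRCm38.p6 and read 5′ to 3′. Capitals mark the ETS core GGAAGT in *Clec4d* and the C/EBP motif TTGCNNAA in *Clec4e*, which is met there on the opposite strand.
Clec4d: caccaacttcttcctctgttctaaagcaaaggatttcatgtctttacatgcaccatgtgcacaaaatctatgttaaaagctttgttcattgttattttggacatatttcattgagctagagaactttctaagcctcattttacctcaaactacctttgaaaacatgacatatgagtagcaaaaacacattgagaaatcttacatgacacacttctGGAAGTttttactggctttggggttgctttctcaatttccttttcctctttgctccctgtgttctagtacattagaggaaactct
Clec4e: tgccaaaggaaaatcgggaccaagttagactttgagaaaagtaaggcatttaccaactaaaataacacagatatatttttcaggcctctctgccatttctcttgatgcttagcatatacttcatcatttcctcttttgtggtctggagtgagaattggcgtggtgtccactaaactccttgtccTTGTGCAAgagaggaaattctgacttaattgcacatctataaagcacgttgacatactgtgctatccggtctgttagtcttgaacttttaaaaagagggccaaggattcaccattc
Both strands were searched. The ETS core occurs in 23.8% and the C/EBP motif in 10.8% of 32851 RefSeq promoter windows of this length. Neither window held the AP-1 motif TGANTCA, found in 7.81% of all windows, and none of the matches overlapped another. Of the 10 genes, 7 had a window that was searched. A match of letters is not a binding site.

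In the mNeu gate, *Clec4d* was at 485 CPM in Ctrl (1511 UMIs) and 533 CPM in cKO (4136 UMIs), the highest level of any member in any gate. In the imNeu gate it was at 7.86 CPM in Ctrl and 8.69 CPM in cKO, and in the Monocyte gate at 7.30 and 13.0 CPM. In the imNeu and Monocyte gates *Clec4d* was not above the level in cells that should lack it. The Erythroid progenitor gate, deeper at a median of 12882.5 UMIs in Ctrl and 16698 in cKO, read 10.5 CPM in Ctrl and 16.7 in cKO. The imNeu and Monocyte values lie at or below that level in each library. In cKO the imNeu value lies below it beyond counting error, so that level is not an exact floor. Against the PreNeu gate, the imNeu level was 1.49-fold in Ctrl (0.99 to 2.23) and 2.77-fold in cKO (1.87 to 4.19). After each cell was thinned to 1000 UMIs, 37.7% of Ctrl and 40.5% of cKO mNeu cells had a *Clec4d* UMI, against 1.87% and 5.83% of Erythroid progenitor cells. Without thinning the shares in the mNeu gate were 60.1% at a median of 2258 UMIs and 79.3% at a median of 5790 UMIs. The thinning left out 100 Ctrl and 78 cKO cells of that gate.

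*Clec4e*, which encodes Mincle, climbed from the PreNeu gate on in both libraries. In Ctrl it went from 16.9 CPM in the PreNeu gate to 47.2 in the imNeu and 195 in the mNeu gate. In cKO the same gates read 23.3, 68.0 and 285 CPM. The step from PreNeu to imNeu was 2.79-fold in Ctrl and 2.92-fold in cKO, and from imNeu to mNeu it was 4.13-fold and 4.18-fold. The size of both steps was therefore nearly equal in the 2 libraries while the cKO level was higher at each of these stages. *Clec4e* was also counted in the HSC/MPP gate, which read 28.2 CPM in Ctrl (123 UMIs) and 19.4 CPM in cKO (28 UMIs), against 3.85 and 4.81 CPM in the Erythroid progenitor gate. Both ratios exclude 1 by counting error, 7.32-fold in Ctrl and 4.02-fold in cKO. *Clec4d* showed no such excess in HSC/MPP cells, with 12.6 and 12.5 CPM. After thinning, 1.55% of Ctrl HSC/MPP cells (6 of 388) and 0.95% of cKO cells (1 of 105) kept a *Clec4e* UMI, against 0.80% and 4.85% of Erythroid progenitor cells, so at this depth the shares do not separate these gates and the cKO shares run against the CPM.

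*Clec4d* and *Clec4e* RNA did not mark separate mature neutrophils. In thinned mNeu cells of Ctrl, *Clec4e* was seen in 16.9% of cells with *Clec4d* and in 15.2% of cells without it. In cKO the shares were 26.5% and 22.2%. The exact 95% intervals of each pair overlap, 13.5 to 20.8% and 12.6 to 18.0% in Ctrl, and 22.6 to 30.6% and 19.2 to 25.4% in cKO.

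**Figure D2:**
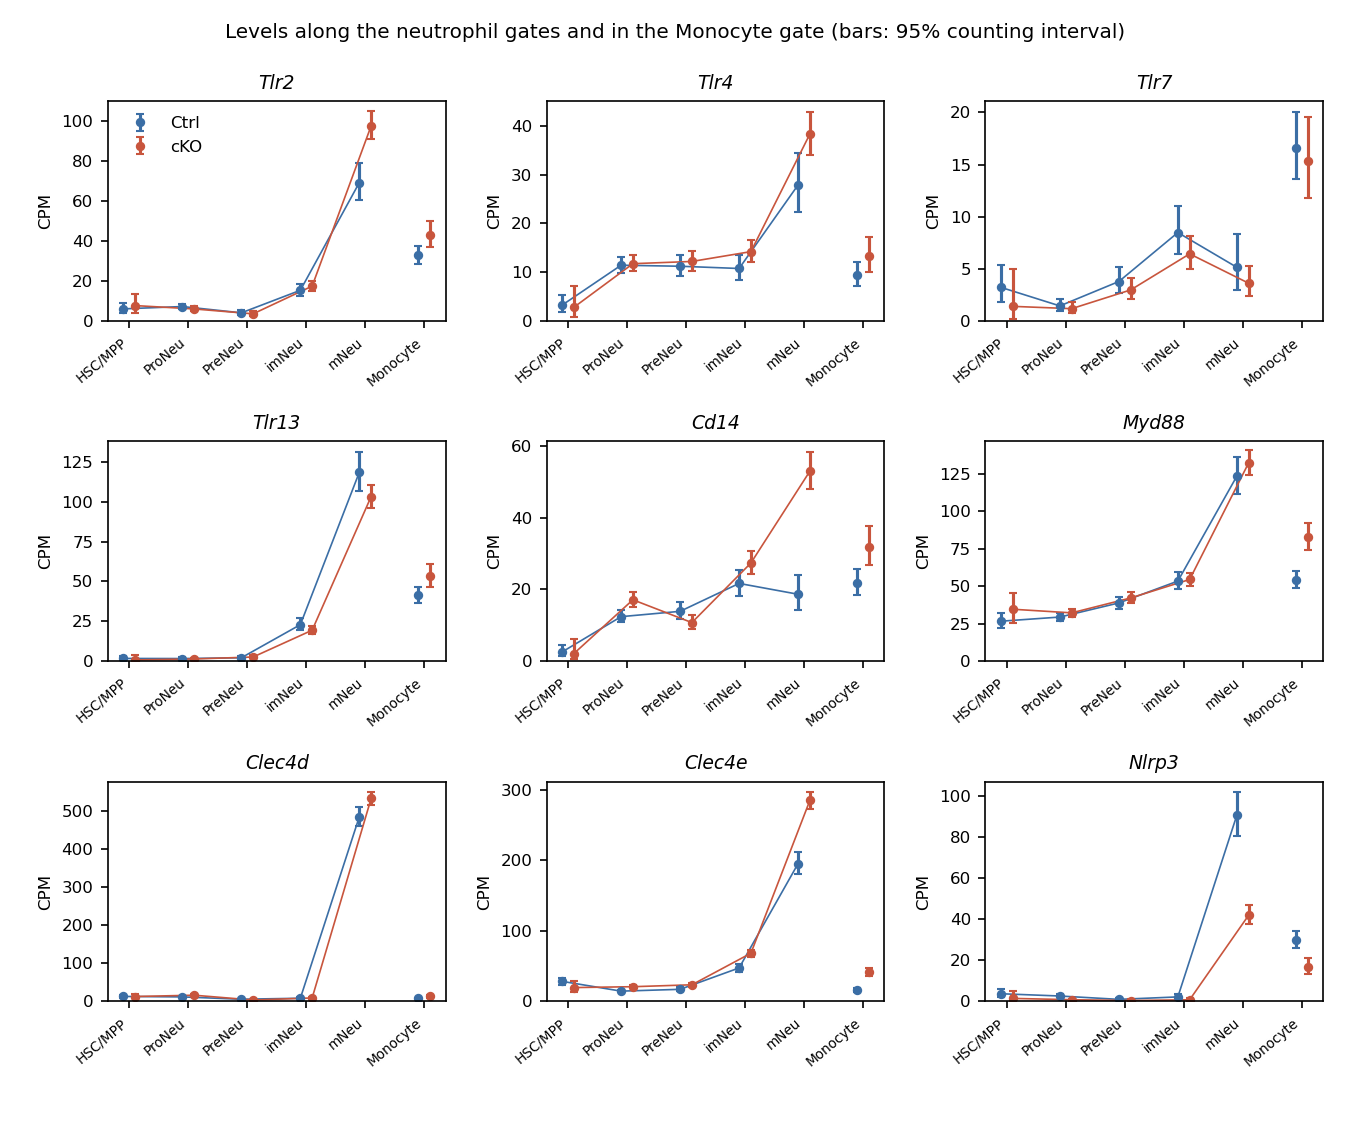
CPM of each receptor along the neutrophil gates and in the Monocyte gate, with Ctrl in blue and cKO in red. Bars are exact Poisson 95% intervals, which cover counting error only, and lines join the neutrophil gates. Clec4d and Nlrp3 rise mostly at the last step, while Tlr2, Tlr13 and Clec4e already stand higher in the imNeu than in the PreNeu gate in both libraries.

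The Toll-like receptors differed among themselves. *Tlr2*, which recognises bacterial lipoproteins, was at 69.3 CPM in Ctrl and 97.7 CPM in cKO in the mNeu gate, and the Monocyte gate read 32.8 and 43.2 CPM. The Macrophage gate came between them in both libraries, at 46.1 CPM from 9 UMIs in Ctrl and 65.6 CPM from 4 UMIs in cKO, with intervals that reach both neighbours. *Tlr2* was low in the PreNeu gate, at 3.97 and 3.48 CPM, and stood at 15.3 and 17.4 CPM in the imNeu gate. *Tlr13*, a mouse endosomal receptor for bacterial ribosomal RNA, had the steeper early step, from 2.04 to 22.8 CPM in Ctrl and from 2.52 to 19.4 CPM in cKO between the PreNeu and imNeu gates. It then reached 119 and 103 CPM in the mNeu gate and was at 41.5 and 53.5 CPM in the Monocyte gate.

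*Tlr4*, the lipopolysaccharide receptor, was even from the ProNeu to the imNeu gate. It was low in the HSC/MPP gate, at 3.21 and 2.77 CPM. It read 11.4, 11.2 and 10.7 CPM in the ProNeu, PreNeu and imNeu gates of Ctrl, and 11.7, 12.2 and 14.2 CPM in those of cKO. In the mNeu gate it was at 27.9 and 38.4 CPM. The Macrophage gate of Ctrl, at 46.1 CPM from 9 UMIs, had an interval of 21.1 to 87.6 CPM that holds the mNeu value.

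*Tlr7*, which senses single-stranded RNA in endosomes, was the member with the lowest level in the mNeu gate. Its level was 82.1 CPM in the pDC gate of Ctrl (29 UMIs in 86 cells) and 118 CPM in that of cKO (9 UMIs in 11 cells). The Macrophage gate followed with 25.6 CPM from 5 UMIs and 65.6 CPM from 4 UMIs, then the Monocyte gate with 16.6 and 15.3 CPM, and the mNeu gate had 5.13 and 3.61 CPM. The pDC level was 4.94-fold the Monocyte level in Ctrl and 7.73-fold in cKO. Along the neutrophil path *Tlr7* was highest in the imNeu gate, at 8.47 and 6.42 CPM, and lower again in the mNeu gate, where the interval of the difference excludes 0 in cKO and includes it in Ctrl. The Erythroid progenitor gate had 4 and 0 *Tlr7* UMIs, the latter of which allows up to 1.11 CPM.

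*Cd14*, which hands lipopolysaccharide to *Tlr4*, had its highest levels in 4 gates of Ctrl that could not be ordered. The Macrophage, Monocyte, imNeu and mNeu gates read 25.6, 21.7, 21.6 and 18.6 CPM, and their intervals overlap. The ProNeu and PreNeu gates, at 12.4 and 13.8 CPM, lay below the imNeu and Monocyte gates with no overlap. In cKO the imNeu gate read 27.3, the Monocyte gate 31.8 and the mNeu gate 52.9 CPM, and the mNeu interval of 47.9 to 58.3 CPM lies above both others. The Macrophage gate of cKO read 65.6 CPM from 4 UMIs, with an interval of 17.9 to 168 CPM that holds all 3 values. The pDC gate held 0 *Cd14* UMIs in either library.

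*Myd88*, the shared adaptor, was found in every gate except the 17 Erythroblast cells of cKO, which held 0 UMIs. Its mNeu level was 124 CPM in Ctrl and 132 CPM in cKO, 6.72-fold and 6.498-fold over the Erythroid progenitor gate, where it was 18.4 and 20.4 CPM. The steps along the path were small and in the same order in both libraries, from 29.4 and 32.2 CPM in ProNeu to 38.8 and 42.1 in PreNeu and 53.4 and 54.5 in imNeu. The pDC gate of Ctrl, at 67.9 CPM, had an interval of 43.5 to 101 CPM that holds the Monocyte level of 54.4 CPM.

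*Nlrp3* switched on late and sharply. It was at 90.8 CPM (283 UMIs) in the mNeu gate of Ctrl and 42.0 CPM (326 UMIs) in that of cKO, while the imNeu gate held 14 and 8 UMIs, or 2.12 and 0.72 CPM. Those imNeu values sit near the Erythroid progenitor gate, with 11 and 0 UMIs. The Monocyte gate followed the mNeu gate at 29.97 and 16.7 CPM. Of the *Nlrp3* UMIs in gated cells, 46.9% in Ctrl and 76.3% in cKO lay in the mNeu gate.

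In the imNeu, mNeu and Monocyte gates, most members were higher in cKO than the bulk of the genes in the same gate. The median log2 ratio of cKO over Ctrl was 0.14 for the 9 members in the mNeu gate, against -0.48 for the 9896 genes with at least 10 UMIs there. In the imNeu gate the medians were 0.14 and -0.45, and in the Monocyte gate 0.50 and -0.22. Of the 9 members, 7 lay above the all-gene median in the mNeu gate and 8 in each of the imNeu and Monocyte gates. In the ProNeu gate 7 of 9 also lay above it, with a members' median of 0.04 against -0.30 for all genes. In PreNeu 5 of 9 did, with medians of -0.19 and -0.34. HSC/MPP differed, with 3 of 9 above it and medians of -0.28 and -0.11. At least 50 UMIs were held by 3 members in HSC/MPP and by 7 in each of ProNeu and PreNeu. Scaling by the median of ratios, which moves every log2 ratio up by 0.38 in mNeu, 0.37 in imNeu and 0.14 in Monocyte cells, leaves these distances as they are. The mNeu gates also differed in depth, with medians of 2258 UMIs per cell in Ctrl and 5790 in cKO. In the ProNeu gate the order was reversed, at 16244 in Ctrl and 4045 in cKO.

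A change of at least 1.5-fold was counted for genes with at least 50 UMIs over both libraries. In the mNeu gate 8 members had that many UMIs, of which 1 (*Cd14*) was higher in cKO and 1 (*Nlrp3*) lower. Of all genes there, 2.85% were higher and 31.8% lower. After scaling by the median of ratios, 4 members were higher and 1 lower, against 8.92% and 11.1% of all genes. In the imNeu gate 0 of 8 members passed in either direction, where 1.35% of all genes were higher and 32.1% lower. In the Monocyte gate 3 of 9 members were higher (*Myd88*, *Clec4d* and *Clec4e*) and 1 (*Nlrp3*) lower, against 3.84% and 17.8% of all genes. The *Clec4d* call in monocytes rests on levels of 7.30 and 13.0 CPM, at or below the Erythroid progenitor gate, which itself read 10.5 CPM in Ctrl and 16.7 CPM in cKO. With the other scaling there were 5 higher and 1 lower members in the Monocyte gate, against 7.02% and 11.02% of all genes, and 3 higher and 0 lower in the imNeu gate, against 5.91% and 12.3%.

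**Figure D3:**
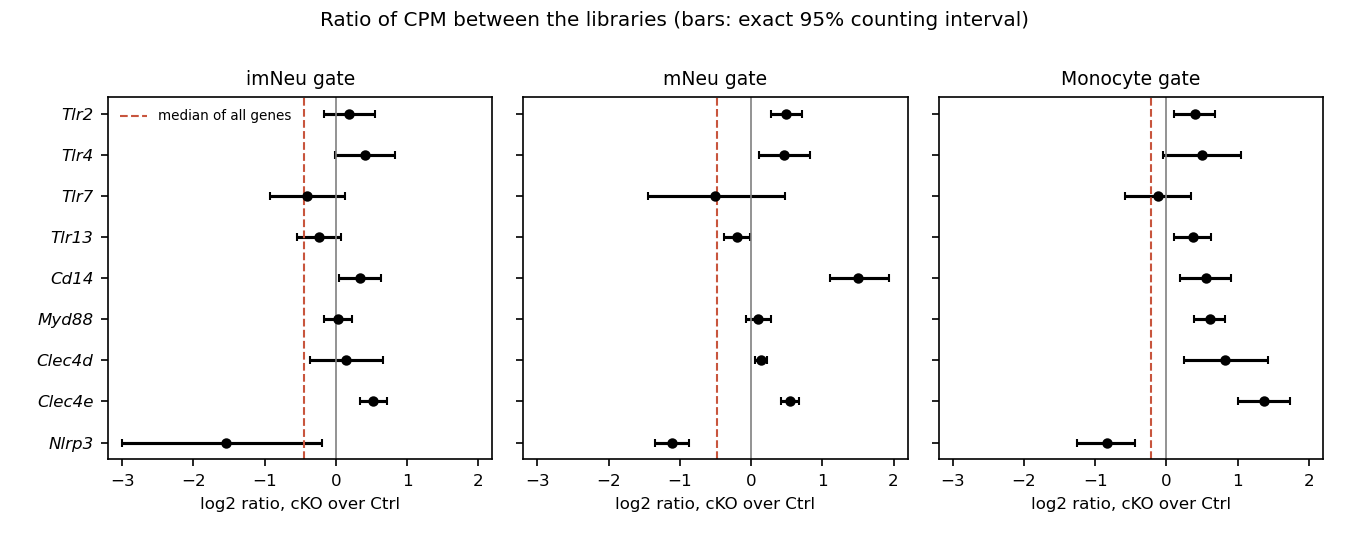
Log2 ratio of CPM in cKO over Ctrl for each receptor in the imNeu, mNeu and Monocyte gates. Points are the ratios, bars their exact 95% intervals from counting error alone, the grey line is 0 and the dashed line the median of all genes in that gate. Nlrp3 lies left of the dashed line in all 3 panels, and Cd14 in mNeu and Clec4e in Monocyte cells lie farthest to the right.

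*Cd14* had the largest ratio of the set in the mNeu gate. Its 58 UMIs in Ctrl and 411 in cKO gave a log2 ratio of 1.51 with an interval of 1.11 to 1.93, and a range of 1.30 to 1.89 over the alternative settings. The UMIs were unevenly spread over cells, and the 10 richest cells held 25.1% of the cKO UMIs and 37.9% of the Ctrl UMIs, and a single cKO cell held 40. Without the 10 richest cells of each library the levels were 11.5 CPM in Ctrl and 39.7 CPM in cKO. Thinned to 1000 UMIs, 2.01% of Ctrl cells and 4.53% of cKO cells had a *Cd14* UMI, with intervals of 1.28 to 3.01% and 3.43 to 5.86%. The libraries thus differed in the share of cells with a *Cd14* UMI at this depth and not in the richest cells alone. Such a share cannot tell more expressing cells from more RNA per cell. In the imNeu and Monocyte gates the ratio was smaller, 0.34 and 0.55, and at equal depth 2.74% of Ctrl and 1.64% of cKO monocytes had a *Cd14* UMI, which runs against the CPM. In imNeu cells the mean of per-cell proportions turned the sign, to -0.09.

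*Clec4e* was higher in cKO in all 3 gates. The log2 ratio was 0.53 (0.34 to 0.72) in imNeu, 0.55 (0.42 to 0.68) in mNeu and 1.37 (1.01 to 1.74) in Monocyte cells. In the Monocyte gate that is 15.8 CPM from 102 UMIs in Ctrl and 41.0 CPM from 174 UMIs in cKO. At equal depth 1.73% of Ctrl and 7.24% of cKO monocytes had a *Clec4e* UMI, with intervals of 0.90 to 3.00% and 4.59 to 10.8%. The share in the Erythroid progenitor gate was 0.80% in Ctrl and 4.85% in cKO, the latter 5 of 103 cells, so by shares at this depth the cKO monocytes cannot be set apart from background, while their CPM was above the 4.81 CPM of that gate. The 8 mNeu markers summed to 1166 CPM in the Monocyte gate of Ctrl and 2068 CPM in that of cKO, with all 8 detected in each, and their part in the *Clec4e* difference was not tested. *Clec4d*, at the background level in monocytes, had 47 and 55 UMIs there.

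Pooled over depth, *Nlrp3* and *Tlr7* were lower in cKO in each of the 6 gates from HSC/MPP to mNeu and Monocyte. Every pooled *Tlr7* interval included 0, and its ratios from ProNeu to Monocyte lay within 0.11 of the all-gene median. In monocytes of at least 8000 UMIs *Tlr7* was higher in cKO, 6.66 against 12.4 CPM, a log2 ratio of 0.90 (0.22 to 1.60). In those of 4000 to 8000 UMIs it was -0.005 (-0.91 to 0.81). For *Nlrp3* the intervals of 4 of the 6 gates excluded 0, of which ProNeu and imNeu were near background. The ProNeu level was 2.56 CPM in Ctrl and 0.75 CPM in cKO, and the imNeu level 2.12 and 0.72 CPM. The Erythroid progenitor gate held 11 and 0 *Nlrp3* UMIs, so it too was lower in cKO. The log2 ratio was -1.11 (-1.35 to -0.88) in mNeu and -0.84 (-1.25 to -0.44) in Monocyte cells. In the ProNeu gate 43 UMIs in Ctrl faced 13 in cKO, a ratio of -1.76 (-2.78 to -0.84), at depths of 16244 and 4045 UMIs per cell. The HSC/MPP gate had 16 and 2 UMIs, PreNeu 9 and 4, and imNeu 14 and 8, and the intervals of HSC/MPP and PreNeu include 0. At equal depth, 10.6% of Ctrl and 5.69% of cKO mature neutrophils had an *Nlrp3* UMI, with intervals of 8.87 to 12.5% and 4.45 to 7.14%.

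The *Nlrp3* difference in mature neutrophils depended on which cells were compared. In Ctrl, cells of 1000 to 2000 UMIs read 147 CPM, those of 2000 to 4000 read 90.99 CPM, and those of 4000 to 8000 read 44.6 CPM. In cKO the same ranges read 56.4, 59.5 and 54.5 CPM. Over these 3 ranges the Ctrl level was lower the deeper the cells, while the cKO level was flat. The cells under 1000 UMIs, 100 in Ctrl and 78 in cKO, did not continue either course. They read 138 CPM from 11 UMIs in Ctrl and 17.6 CPM from 1 UMI in cKO, a log2 ratio of -2.97 (-8.40 to -0.19). A further 342 cKO cells but only 2 Ctrl cells had at least 8000 UMIs, and the cKO level there was 26.5 CPM. In the first 2 of the 3 ranges cKO was lower, with log2 ratios of -1.38 and -0.61, and in the third the ratio was 0.29 with an interval of -0.23 to 0.84. Of the 1242 Ctrl cells, 419, 554 and 167 lay in the 3 ranges, and of the 1291 cKO cells 86, 231 and 554. Among monocytes of at least 8000 UMIs, 316 Ctrl and 212 cKO cells, *Nlrp3* was at 23.8 and 15.9 CPM.

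The other members of the mNeu gate also shifted with depth. *Clec4d* was lower in cKO among cells of 1000 to 2000 UMIs, 533 against 331 CPM, and higher among those of 4000 to 8000, 353 against 625 CPM. *Clec4e* was 172 against 145 CPM and 200 against 298 CPM in the same ranges. *Tlr13*, with a pooled log2 ratio of -0.20 (-0.38 to -0.02), was between -0.01 and 0.13 in the 4 ranges under 8000 UMIs, and scaling by the median of ratios moved it to 0.19. *Tlr2* was higher in cKO in all 4 ranges, by 0.41 to 1.23, and its pooled ratio was 0.50 (0.28 to 0.72). The value of 1.23, in cells under 1000 UMIs, came from 3 UMIs in Ctrl and 5 in cKO, with an interval of -1.13 to 3.91. *Cd14* was higher in 3 of the 4, and by 1.99 and 1.41 in the ranges from 2000 and from 4000 UMIs. In the range from 1000 UMIs it had 9 UMIs in Ctrl and 2 in cKO, a ratio of 0.20 (-3.05 to 2.47). Under 1000 UMIs it had 5 and 3, a ratio of -0.25 (-2.93 to 2.12), so no *Cd14* difference was seen below 2000 UMIs. These ranges were chosen after the data were seen.

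**Figure D4:**
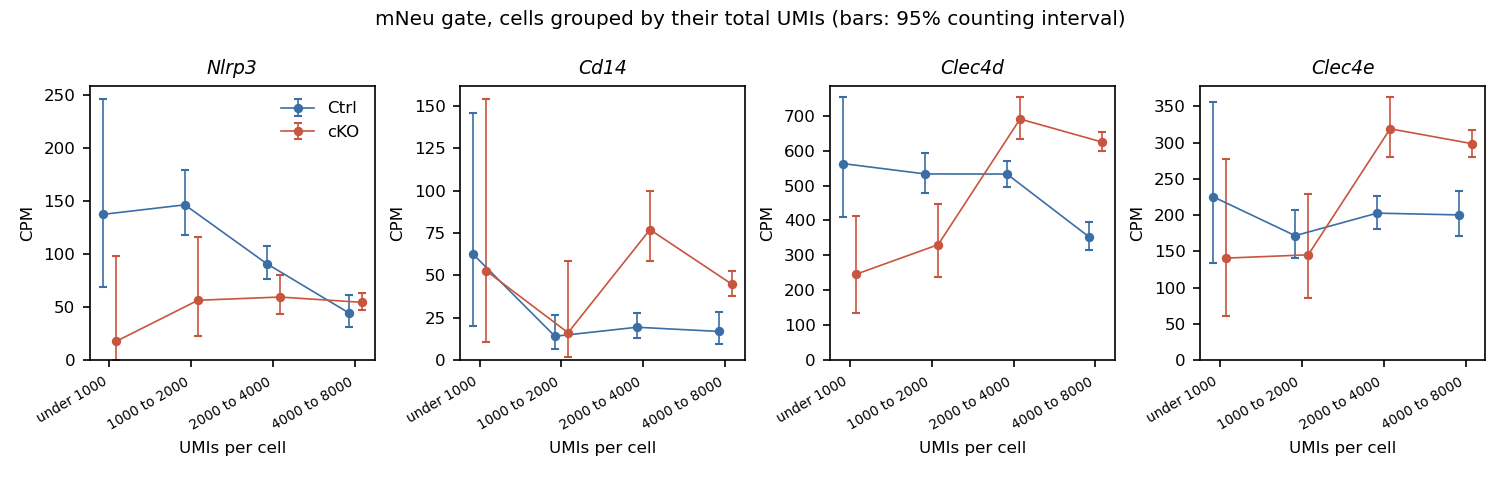
CPM of Nlrp3, Cd14, Clec4d and Clec4e in the mNeu gate, with cells grouped by their total UMIs, Ctrl in blue and cKO in red. Bars are exact Poisson 95% intervals. From cells of 1000 to 2000 UMIs on, the Nlrp3 points of Ctrl come down from 147 to 44.6 CPM and meet the cKO points in cells of 4000 to 8000 UMIs.

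RNA of other cell types moved with the library in the mNeu gate. Its 7 Erythroblast markers summed to 191 CPM in Ctrl and 23.2 CPM in cKO, with 6 and 7 of them detected. The 8 ProNeu markers gave 1385 and 671 CPM, the 7 B markers 34.3 and 5.02 CPM, and the 8 Macrophage markers 18.3 and 2.32 CPM. The 8 Monocyte markers went the other way, at 1127 CPM in Ctrl and 1339 CPM in cKO. Markers of the stage before, the 8 imNeu genes, stood at 15590 CPM in Ctrl and 22318 CPM in cKO. The part of these differences in the receptor ratios was not tested.

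The other members had these ratios. *Myd88* had a log2 ratio of 0.10 (-0.07 to 0.27) in mNeu cells, where it was -0.97 (-2.07 to -0.03) in cells of 1000 to 2000 UMIs and 0.85 (0.50 to 1.23) in those of 4000 to 8000. In Monocyte cells it was 0.61 (0.39 to 0.82), but at equal depth 6.63% of Ctrl and 6.58% of cKO monocytes had a *Myd88* UMI. *Tlr4* had ratios of 0.46 (0.11 to 0.82) and 0.50 (-0.05 to 1.05) in mNeu and Monocyte cells. Its mNeu ratio was -0.51 and -0.21 in the ranges under 2000 UMIs, with intervals that include 0. It was 1.03 and 1.45 in the ranges from 2000 and from 4000 UMIs. At equal depth 3.06% of Ctrl and 3.96% of cKO mNeu cells had a *Tlr4* UMI, with overlapping intervals of 2.14 to 4.24% and 2.93 to 5.21%. *Clec4d* was at 0.14 (0.05 to 0.22) in mNeu cells and, at background level, at 0.83 (0.24 to 1.42) in monocytes. In monocytes *Tlr2* was at 0.40 and *Tlr13* at 0.37, pooled over depth. In monocytes of 4000 to 8000 UMIs *Tlr2* was at 0.20, *Tlr13* at 0.38 and *Tlr4* at -0.44, all with intervals that include 0. In those of at least 8000 UMIs they were at 0.88 (0.51 to 1.25), 1.09 (0.73 to 1.45) and 1.03 (0.33 to 1.74). *Tlr7*, with 16 and 28 UMIs in mNeu cells, had pooled ratios whose intervals include 0 in all 3 gates, the Monocyte interval running from -0.58 to 0.34.

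Genes that act with these receptors were read from 7 lists of 74 genes. In the mNeu gate 53 of them had at least 50 UMIs, of which 2 were at least 1.5-fold higher and 16 lower in cKO, beside 2.85% and 31.8% of all genes. Both higher genes were further Toll-like receptors, *Tlr1* at 2.25 and 12.5 CPM and *Tlr8* at 3.85 and 10.3 CPM, which pair with *Tlr2* and sense RNA, respectively. They had 104 and 92 UMIs, most of them in cKO, so both passed the floor of 50 UMIs mainly through that library. Their log2 ratios were 2.48 (1.38 to 3.83) and 1.42 (0.54 to 2.43). The 5 adaptor and kinase genes that were lower included *Tab2*, a link to the kinase TAK1, at 156 and 95.3 CPM. Of the helpers, *Unc93b1*, which escorts *Tlr7* and *Tlr13* to endosomes, read 150 and 97.0 CPM, and the chaperone gene *Hsp90b1*, needed to fold Toll-like receptors, read 61.3 and 24.98 CPM. In the Monocyte gate 60 of the 74 genes had enough UMIs, with 7 higher and 5 lower, beside 3.84% and 17.8% of all genes.

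By list, the mNeu gate had 2 higher and 0 lower of 4 other Toll-like receptors, and 0 and 2 of 5 helpers. It had 0 and 5 of 13 adaptors and kinases, and 0 and 3 of 4 cytosolic sensors. Of 6 other phagocyte recognition genes, 0 were higher and 0 lower. Among all genes of that gate, 2.85% were higher and 31.8% lower. The Monocyte gate had 0 and 0 of 3 other Toll-like receptors, 1 and 0 of 7 helpers, and 0 and 2 of 15 adaptors and kinases. It had 1 and 1 of 7 cytosolic sensors, and 0 and 1 of 6 phagocyte recognition genes. Among all genes of that gate, 3.84% were higher and 17.8% lower. Lists this short are given as a description. The single helper higher in monocytes was *Ly96*, which encodes the MD-2 subunit that sits on *Tlr4*, at 12.6 CPM in Ctrl and 25.9 in cKO. It was level in the mNeu gate, at 28.9 and 26.4 CPM. Among the most abundant genes of these lists, the adaptor gene *Tirap* was at 86.6 and 85.8 CPM in mNeu cells and the RNA helicase gene *Ddx58* at 59.7 and 51.0 CPM. In monocytes the transcription factor gene *Irf5* read 127 and 177 CPM, *Tmem173*, which encodes STING, 56.5 and 84.9 CPM, and *Cgas*, the DNA sensor upstream of it, 48.5 and 31.8 CPM. The peptidoglycan recognition gene *Pglyrp1* was at 2905 and 4074 CPM in mNeu cells and 157 and 181 CPM in monocytes.

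The signalling partners of the lectins were abundant in both gates. *Fcer1g*, the adaptor of *Clec4d* and *Clec4e*, was at 1549 CPM in Ctrl and 1808 CPM in cKO mature neutrophils, and at 1120 and 1837 CPM in monocytes. *Tyrobp*, a related ITAM adaptor, was at 3380 and 3963 CPM and at 1541 and 2531 CPM. Of the lectin and ITAM list, 4 of 11 genes were higher and 0 lower in cKO monocytes, beside 3.84% and 17.8% of all genes, and 0 of 10 were higher and 3 lower in the mNeu gate, beside 2.85% and 31.8%.

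In the inflammasome list, 11 genes had enough UMIs in the mNeu gate, of which 0 were higher and 3 lower (*Gsdmd*, *Aim2* and *Mefv*), a share near the 31.8% of all genes that were lower there. In the Monocyte gate 1 of 11 was higher and 1 lower, beside 3.84% and 17.8% of all genes. *Il1b*, whose product caspase-1 matures, was at 326 CPM in Ctrl and 377 CPM in cKO in the mNeu gate, a log2 ratio of 0.21 (0.10 to 0.31). It too depended on depth. It was lower in cKO below 2000 UMIs, with 951 and 439 CPM in cells under 1000 UMIs and 710 and 452 CPM in those of 1000 to 2000. It was higher above that, with 289 and 753 CPM among cells of 2000 to 4000 UMIs and 45.8 and 565 CPM among those of 4000 to 8000. *Txnip*, which can bind *Nlrp3*, read 626 and 494 CPM, and *Gsdmd*, the pore-forming substrate of inflammatory caspases, 103 and 67.5 CPM. In the Monocyte gate *Pycard*, the adaptor that joins *Nlrp3* to caspase-1, was at 292 and 439 CPM. In thinned mNeu cells *Nlrp3* was seen in 14.0% of Ctrl cells with *Il1b* and 9.68% of those without, and in 8.65% and 4.76% of cKO cells. Within cells with *Il1b* and within cells without it, the cKO share was thus the lower, and the intervals overlap for the former, 9.89 to 19.0% against 5.68 to 12.5%, and not for the latter, 7.82 to 11.8% against 3.48 to 6.34%.

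Across the 34 profiles given by 17 gates in both libraries, the genes nearest to each member by Pearson r of log2(CPM + 1) were taken from 10977 genes. The profiles of a library share its depth and background RNA, and r is given as a description. All profiles counted equally, although 7 of the 17 gates had under 25 cells in 1 library. The smallest held 3 cKO cells, where a count of 0 allows 98.8 CPM. The nearest genes to *Tlr2* were *1600010M07Rik* (r = 0.91), *Tlr6* (0.90) and *Bcl6* (0.88), of which *Tlr6* encodes a partner of *Tlr2* in its heterodimer. For *Clec4e* they were *Cxcl2* (0.85), a neutrophil chemokine gene, *Nat8l* (0.85) and *Mmp25* (0.84), and for *Nlrp3* they were *Klra2* (0.90), *Lilra6* (0.88) and *Ccl6* (0.84), the last a marker used for the mNeu gate. *Tlr7* lay nearest to *Rubcnl* (0.89), *Psap* (0.89) and *Ctsh* (0.88), the latter pair coding for lysosomal proteins. *Tlr13* had *Apoc2* (0.90), *1600010M07Rik* (0.89) and *Rin2* (0.88), and *Cd14* had *Siglece*, *G6pdx* and *Gsr* at 0.82, 0.82 and 0.81. The nearest to *Tlr4* were *Scnn1a*, *Slc27a4* and *Sgms2* (0.84, 0.84 and 0.83), to *Myd88* *Mob3a*, *Hpcal1* and *Myo9b* (0.89, 0.88 and 0.88), and to *Clec4d* *Gm19696*, *Hacd4* and *Fbxo31* (0.76, 0.76 and 0.75). Among the members, r was highest between *Tlr2* and *Tlr13* at 0.80, and was 0.69 between *Clec4d* and *Clec4e*.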

How the data were processed

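The authors deposited, for each library, raw UMI counts per gene and cell barcode, made from a BMKMANU DG1000 3′ library with Cell Ranger 5.0.0 on GRCm38 and not normalized. From these deposited counts, cells were kept if they had 200 to 9000 genes and no more than 30% of UMIs from mitochondria, and no doublet caller was run. Each cell took the gate whose markers scored highest, with at least 3 markers detected and a lead of 0.25 over the next gate. Cells with near-equal scores for a pair of gates stayed without one. UMIs were summed per gate and library and divided by the gate's total (CPM). CPM carry exact Poisson, ratios exact binomial and shares exact Clopper-Pearson 95% intervals, which cover counting error only. A count of 0 is given as allowing 3 counts. With 1 library per group no test was run.

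The members and lists were chosen with earlier results of these data known. The text names all members, genes from the 3 highest per list in the mNeu and Monocyte gates, the 3 nearest profiles per member among genes reaching 20 CPM in a gate, and *Map4k4*. *Ly96* in monocytes and *Aim2* and *Mefv* were named after their values were seen. Poisson counts for cKO against Ctrl were simulated from the pooled mNeu means of 9896 genes, and 96.4% of intervals held the true ratio. These simulated counts hold no further spread between cells or libraries, so they check the calculation alone and not the fit of the intervals to the real counts. The alternatives were other floors on UMIs per cell, a mitochondrial share of at most 10%, a stricter gate lead of 0.5, per-cell means, a denominator without mitochondrial, ribosomal, haemoglobin and immunoglobulin genes, median-of-ratios scaling, and thinning to 1000 UMIs per cell. Calculations used Python 3.11.15, numpy 2.4.6, scipy 1.17.1 and pandas 2.3.3. The Eosinophil gate, with 9 and 4 cells, was not used.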

Additional observations from a re-analysis of the deposited data

Results flagged for a closer look

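*Tlr13* had opposite signs in 2 cell types when cells of all depths were pooled. Its log2 ratio of cKO over Ctrl was 0.37 in the Monocyte gate and -0.20 in the mNeu gate, with 1 library per group. Within ranges of depth the mNeu ratio ran only from -0.01 to 0.13 under 8000 UMIs, so the lower mNeu level was not seen there. In monocytes it was 0.38 from 4000 to 8000 UMIs and 1.09 from 8000 UMIs on. The difference between the gates was not tested. Under median-of-ratios scaling the mNeu value became 0.19, and under the mean of per-cell proportions the Monocyte value became -0.03.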

How the results depend on the processing

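Median-of-ratios scaling moved the mNeu summaries most: the members' median log2 ratio in the mNeu gate went from 0.14 to 0.52, and the members past 1.5-fold there from 2 to 5. Under it the imNeu median also went from 0.14 to 0.51, and the members past 1.5-fold in the Monocyte gate from 4 to 6. Under the other settings the medians ran from 0.08 to 0.25 in mNeu and from 0.32 to 0.51 in Monocyte cells. In imNeu cells they ran from -0.08, under per-cell means, to 0.16. The members past 1.5-fold were 2 or 3 in mNeu and 4 or 5 in Monocyte cells, and the 7 members higher in mNeu than in Monocyte cells stayed 7. Of 27 single ratios, 12 moved beyond their interval under that scaling, 3 under per-cell means and 1, *Nlrp3* in mNeu at -0.83, with at least 2000 UMIs per cell, a floor chosen after the data were seen. Signs changed in 3, 3 and 1 of them. No paired analysis was possible because each group has 1 library. Depth limits *Tlr7* in neutrophils and all members in the Macrophage and pDC gates, which hold few UMIs.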
